A study of Homo sapiens with 10 samples.

Results

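The cytosolic ribosomal protein genes encode the protein components of the cytosolic ribosome. They were chosen by name as the protein-coding genes whose symbol starts with RPL or RPS followed by a digit, together with RPLP0, RPLP1, RPLP2 and RPSA, and without the RPS6K kinases. Of 31014 genes with a counted interval, 89 met this rule, and 2 further annotated genes, RPS27 and RPS4Y2, were not analysed here. The 89 genes comprised 43 proteins of the large subunit, 30 of the small subunit and the 3 proteins of the acidic stalk, which together are called canonical below (76 genes). The remaining 13 were 9 paralogs such as RPL22L1 and RPS27L, 3 read-through loci in which a ribosomal protein gene is annotated jointly with its neighbour, and RPS19BP1. The last of these is not a ribosomal protein but a nucleolar protein that binds RPS19, and it entered through its symbol alone.

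Ribosomal proteins are made in near-equal amounts, are imported into the nucleus and are assembled on ribosomal RNA in the nucleolus. Their mRNAs are short, abundant and stable, and most start with a C followed by a tract of C and T bases (the 5′ terminal oligopyrimidine, or TOP, motif), through which mTOR and LARP1 control their translation. Many of these genes carry small nucleolar RNAs (snoRNAs) in their introns, and nearly all have processed pseudogenes elsewhere in the genome.

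The cells were 22RV1, an established castration-resistant prostate cancer line. Of the 5 groups, each of 2 libraries, 1 was left untreated (control) and the others were exposed for 4 h to 20 μM SRPIN340 (an SRPK inhibitor), 50 μM Endovion (SCO-101, studied here as an SRPK1 inhibitor), THZ531 (an inhibitor of the transcriptional kinase CDK12) or THZ531 together with Endovion. The dose of THZ531 was given as 100 nM in the methods and as 150 nM in the series description. The nucleoside 4-thiouridine (4sU) was present for the last 10 min, and newly made RNA was recognised by T-to-C conversions (SLAM-seq) in 3′ end libraries. Reads with a conversion are called nascent RNA, all reads total RNA, and the percentage of reads with a conversion the labelled share. All 5 groups came from the same line, no unlabelled library was used here, and all comparisons against control shared the same 2 control libraries. The combination of SRPIN340 with THZ531 was not analysed here. The labels do not say whether replicates were separate cultures, so the p-values measure only the spread between these libraries, which may be technical.

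The libraries held an estimated 35517462 to 53592904 mapped reads. Of these, 19315353 to 30047601 fell on counted genes and 1011586 to 1576065 carried a conversion (5.04 to 5.70% of reads on genes). The 5 prostate epithelial markers HOXB13, FOXA1, KRT8, KRT18 and EPCAM all had reads, and their summed level was 763 to 934 CPM, a read count scaled to a common library size. The fibroblast markers summed to 1.91 to 3.43 CPM, with 1 of 4 at 0. The leukocyte markers summed to 0 to 0.311 CPM, with 1 of 3 at 0, and the endothelial markers to 0 to 0.0333 CPM, with 2 of 3 at 0. The library labelled Endovion replicate 1 stood apart for most canonical genes, and control replicate 2 for some single genes such as RPS29 and RPL27. The values of both libraries are given beside the results they touch.

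The starts of the mRNAs are shown because the TOP motif is the sequence feature by which this gene family is usually recognised. Each line gives 10 bases before and 20 bases from an annotated start of transcription (RefSeq, GRCh38.p14). Where a gene had several annotated starts, the one with the longest run is printed. Capitals mark the run of C and T bases where it begins with C and has at least 4 further C or T bases.
RPLP0: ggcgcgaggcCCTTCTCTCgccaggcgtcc
RPLP2: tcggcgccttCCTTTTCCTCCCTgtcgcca
RPS6: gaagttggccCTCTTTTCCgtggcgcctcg
RPS24: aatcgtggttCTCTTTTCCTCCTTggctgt
RPL14: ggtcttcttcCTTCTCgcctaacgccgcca
RPL3: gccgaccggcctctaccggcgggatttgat
RPL26L1: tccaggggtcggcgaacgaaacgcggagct
RPS27L: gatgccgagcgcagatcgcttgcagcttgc
RPS24 (chr10:78033853-78033882, + strand) carried the longest run among these, 14 bases. RPL3, a large subunit protein, and the paralogs RPL26L1 and RPS27L had no run that met this limit at any annotated start searched. A TOP start by this definition was found in 45 of the 61 canonical genes with a promoter entry (73.8%), namely 25 of 35 large subunit, 17 of 23 small subunit and 3 of 3 stalk genes. Among 15842 protein-coding genes with an entry, 988 (6.24%) had such a start. Of the paralogs, 2 of 7 had it, 1 of them RPL22L1. A gene was counted if any of its annotated starts had the run. The search read the given strand at these starts only, so a gene without a match may still have a shorter run there or a run at another start.

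The transcript ends are shown because the libraries were counted there, in 3′ UTR intervals that were often very short for this family. Capitals mark AATAAA or ATTAAA, the poly(A) signal letters searched on the transcript strand (build hg38), and each line ends at the last base of the counted interval.
RPS12: agaAATAAAtctttggctcaca
RPLP2: cccctgcaAATAAAgcctttttacacatct
RPL27: tttgatcATTAAAaattataaagaaaaaaa
The interval of RPS12 was 22 bases long in all. Over 85 members with reads, the main interval had a median length of 305 bases against 1120 bases over 16140 genes, and 27 of the 85 (31.8%) were shorter than 100 bases against 4.19% of those genes. AATAAA or ATTAAA lay in the last 40 bases in 59 of 85 members (69.4%) and in 72.4% of the genes. The genes themselves were compact, with a median span of 5440 bases for canonical members against 28582 bases for protein-coding genes and a median of 6 exons against 8. Altogether 28 canonical genes hosted 60 snoRNAs, and 1558 annotated pseudogenes carried a canonical symbol.

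In untreated cells the family was among the most strongly sequenced, but its members differed widely. RPS24, a small subunit protein, had 196382 reads over both control libraries and ranked 9th of all genes, followed by the stalk scaffold RPLP0 with 154832 and RPS28 with 154558. RPLP0 and RPS28 did not differ beyond their spread, since the libraries interleaved (83123 and 71709 reads for RPLP0, 78303 and 76255 for RPS28). At the other end of the members with at least 1000 reads stood RPL36A with 1194, RPL26L1 with 1259 and RPL23A with 1799 reads. Among the canonical genes 62 had at least 1000 reads, 24 were among the 100 genes with most reads, and the 10 with most reads held 45.7% of all canonical reads. At the same time, 7 canonical genes had under 100 reads, and RPS9 and RPS18, both core small subunit proteins, were listed at 0 in the control libraries. These are reads per gene and not per length, from intervals of unequal length with no multi-mapping reads recorded, so they do not rank the mRNAs by abundance. The median was 26267 reads for the 38 canonical genes with 13 or fewer pseudogenes and 20678 for the 38 with 14 or more (Spearman rho across genes -0.17, a description only, since genes share libraries and interval lengths differ).

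The labelled share in control cells was below that of most genes. Over 72 members with at least 1000 reads its median was 3.22%, against 4.72% over 6218 genes with that many reads, and 48 of the 72 lay below the gene median. Per T base covered, the median conversion was 0.161% against 0.208%. The lowest shares were those of RPL35 (0.643%, 95% Wilson interval 0.547 to 0.755), RPL36 (0.910%, 0.798 to 1.04) and RPL18 (1.41%, 1.27 to 1.57), all 3 of the large subunit. At the upper end stood RPL38 (25.6%, 24.8 to 26.4) and RPL39 (18.9%, 18.4 to 19.4). For RPL38 the shares were 25.4% and 25.9% in the control libraries, and for RPL35 0.748% and 0.523%, so the gap between these genes far exceeded the gap between replicates. RPL39 differed more between replicates, with 15.9% and 22.0%. Shares as high as that of RPL38 stood far above the median of the family, and what part of them came from 4sU was not tested. Intervals cover counting error only, and unique molecular identifiers were built into the libraries, while their use in counting was not given in the sources used here.

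**Figure D1:**
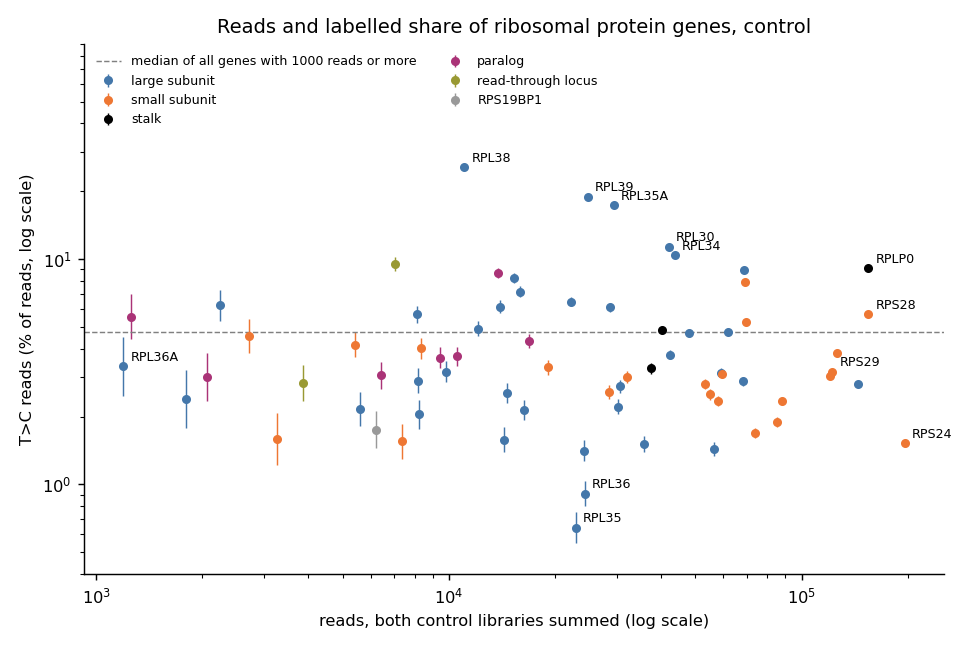
Reads (x axis, both control libraries summed, log scale) and labelled share (y axis, % of reads with a T-to-C conversion, log scale) of the members with at least 1000 reads (1 member is not drawn), coloured by class, with 95% Wilson intervals as bars and the median of all genes with that many reads (4.72%) as a dashed line. The shares drawn run from 0.643% for RPL35 to 25.6% for RPL38, and RPS24 has the most reads.

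Summed over all 89 genes, the family held a smaller mean share of all reads in each treatment than in control, by at most 0.523 percentage points. Its share of all reads on genes was 5.68% and 5.62% in the control libraries, 5.50% and 5.45% with SRPIN340, 4.68% and 5.73% with Endovion, 5.31% and 4.94% with THZ531 and 5.03% and 5.42% with THZ531 and Endovion. Both libraries of SRPIN340, of THZ531 and of the combination lay below both controls, whereas the Endovion libraries lay on either side of them. The mean difference was -0.171 percentage points for SRPIN340, -0.441 for Endovion, -0.523 for THZ531 and -0.423 for the combination (exact permutation test, two-sided, p = 0.333, 1, 0.333 and 0.333, where 0.333 is the smallest p that 2 against 2 libraries allow). The Endovion difference was set by replicate 1: without it the difference was 0.0801 points, and without replicate 2 it was -0.963 points. In Endovion replicate 1, 56 of 61 canonical genes with at least 20 CPM lay below their mean over all libraries, with a median deviation of -0.16 on the log2 scale.

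Among reads with a conversion the family's share was 4.71% and 4.59% in control, 4.66% and 4.79% with SRPIN340, 4.09% and 4.82% with Endovion, 4.44% and 4.11% with THZ531 and 4.37% and 4.63% with the combination. Only both THZ531 libraries lay below both controls among the 4 treatments (difference -0.375 points, exact permutation test, p = 0.333). The labelled share of the summed family was 4.72% and 4.60% in control and 4.35 to 4.72% in the 8 treated libraries, while that of all genes ran from 5.04 to 5.70%. Counted per read, the family's labelled share was thus lower than that of all genes in each of the 10 libraries. Per T base covered this did not hold for the sum of the family, in which genes with more coverage weigh more. Gene by gene, the median conversion in control was 0.161% against 0.208%. Of the 72 members with at least 1000 reads, 49 lay below the gene median. The family's summed conversion was 0.246 and 0.247% in control against 0.250 and 0.249% over all genes. With THZ531 it was 0.243 and 0.227% against 0.238 and 0.216%. It also lay above all genes in both libraries with Endovion, both of the combination and SRPIN340 replicate 2, but below in SRPIN340 replicate 1. The labelled share differed from control by -0.0708, -0.277, -0.132 and -0.231 points for SRPIN340, Endovion, THZ531 and the combination (exact permutation test, p = 0.667, 0.333, 0.667 and 0.333).

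**Figure D2:**
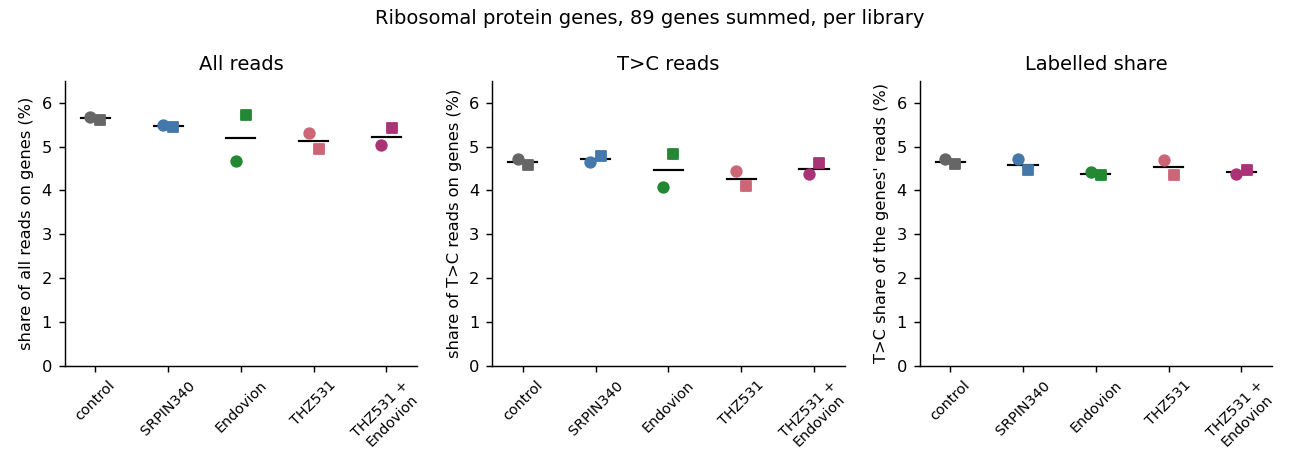
Summed values of the 89 ribosomal protein genes in each library (circle replicate 1, square replicate 2, bar mean of 2), as share of all reads on genes, share of T>C reads on genes and labelled share (all y axes in %, from 0). The control libraries hold 5.68% and 5.62% of all reads, and Endovion replicate 1 is lowest at 4.68%.

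Across total RNA, few single members passed the test in any treatment. Of 14688 genes tested, 84 were members, 73 of them canonical. With SRPIN340, 1.82% of all genes rose and 0.143% fell at an adjusted p under 0.05, and no member was called (edgeR; 6 members at an unadjusted p under 0.05, 0 called by DESeq2). With Endovion, 8.91% of all genes rose and 2.54% fell, and the only member called was RPS19BP1, which fell (10 members at an unadjusted p under 0.05, 1 by DESeq2). With THZ531, 16.6% of all genes rose and 14.1% fell, against 3 members that rose (RPL26L1, RPL39L and RPS10-NUDT3) and 1 that fell (RPS19BP1). With THZ531 and Endovion, 16.6% rose and 12.4% fell, against 5 members that rose (RPL4, RPL14, RPL12, RPL26L1 and RPS10-NUDT3) and 1 that fell (RPS19BP1). Thus no canonical gene was called with SRPIN340, Endovion or THZ531 (edgeR; 4, 7 and 5 of 73 at an unadjusted p under 0.05, 0 by DESeq2 in each), and 3 large subunit genes were called with the combination. The counts of 0 depended on the settings, among them the filter on low counts. Without this filter 2, 4 and 4 canonical genes were called in these 3 treatments. RPL27 and RPS29 were then called as higher in each, and RPS14 and RPS27A as lower with Endovion and with THZ531. With the filter kept, a fit of the THZ531 comparison alone called RPS27A as lower. A fit with replicate number as a block called RPL39 with THZ531.

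The canonical genes were also measured closely enough to bound their changes. Over 61 canonical genes with at least 20 CPM, the 95% interval of the total RNA change lay within 1.5-fold in either direction for 57 genes with SRPIN340, 56 with Endovion, 54 with THZ531 and 52 with the combination (93.4, 91.8, 88.5 and 85.2%). Over 6304 genes with at least 20 CPM this held for 70.0, 61.5, 50.4 and 50.9%. Of the same 6304 genes 2.71, 16.4, 38.3 and 37.2% were called, against 0, 0, 0 and 3.28% of the 61. The median standard error of the log2 change was 0.116 for the canonical genes and 0.139 for all genes with THZ531, and the median size of that change was 0.12 and 0.29. Across the 10 libraries the standard deviation of log2 CPM had a median of 0.121 for the canonical genes and 0.195 for all, while the spread within groups was nearly alike (0.113 and 0.129) and the spread of group means was not (0.0833 and 0.174). These are descriptions of a family chosen by name, with no test of the family against other genes.

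**Figure D3:**
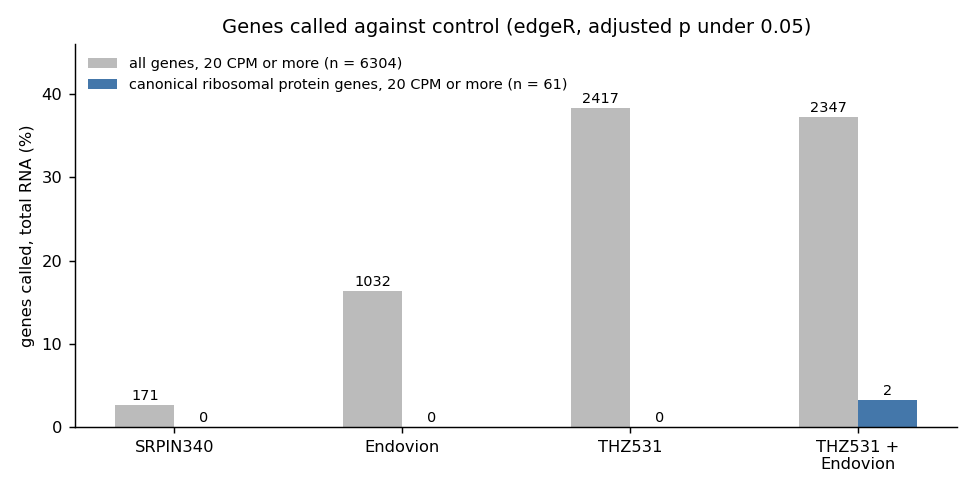
Percentage of genes called against control in total RNA (edgeR, adjusted p under 0.05) among all genes with at least 20 CPM (grey, n = 6304) and among canonical ribosomal protein genes with at least 20 CPM (blue, n = 61), with the number of genes over each bar and the y axis from 0. With THZ531 38.3% of all genes and 0 canonical genes were called.

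By class, the changes in total RNA stayed small. The median log2 change of the large subunit genes was -0.05 with SRPIN340, 0.00 with Endovion, 0.00 with THZ531 and 0.05 with the combination (43 genes), and that of the small subunit genes was -0.11, -0.13, -0.09 and -0.07 (27 genes). Over all tested genes the median was 0.03, 0.02, -0.01 and 0.00. The stalk genes RPLP0, RPLP1 and RPLP2, which carry the site where elongation factors bind, ran from -0.20 to -0.03 in all 4 treatments. RPLP0 itself had 2963 and 3018 CPM in control and 2494 to 3030 CPM in the treated libraries, an overlapping range. Canonical genes with a TOP start had a median of -0.09 with THZ531 (43 genes) and those with another start 0.06 (15 genes), with overlapping ranges of -0.34 to 0.41 and -0.24 to 0.57. Canonical genes hosting a snoRNA had a median of -0.05 with THZ531 (28 genes), as had those hosting none (45 genes).

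Among genes with known roles outside the ribosome, RPL5 and RPL11, which form a particle with the small RNA of the large subunit and can bind the ubiquitin ligase MDM2, had total RNA log2 changes of -0.20 to 0.01 and of -0.09 to 0.23 across the 4 treatments. RPS6, the substrate of S6 kinase, ran from -0.20 to -0.11. RPS3, a protein of the mRNA entry site, ran from -0.19 to 0.11 and RPS24 from -0.17 to 0.00. RPS14, and RPS27A, which is made as a fusion with ubiquitin, both had a value of -0.31 with THZ531. None of these genes passed the test in any treatment, with adjusted p of 0.10 for RPS14 and 0.15 for RPS27A with THZ531, but for these 2 genes that outcome changed with the setting. Without the filter on low counts RPS14 was called with Endovion (-0.33, adjusted p = 0.032) and THZ531 (-0.33, adjusted p = 0.018). RPS27A was then called with Endovion (-0.42, adjusted p = 0.0036), THZ531 (-0.33, adjusted p = 0.017) and the combination (-0.31, adjusted p = 0.027). RPS27A was also called with THZ531 in a fit of that comparison alone (adjusted p = 0.043) and without either Endovion library, and RPS14 without THZ531 replicate 1. RPS27A had a value of -0.38 with Endovion (adjusted p = 0.13), and its Endovion libraries were far apart, with 1420 CPM in replicate 1 and 2167 CPM in replicate 2.

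**Figure D4:**
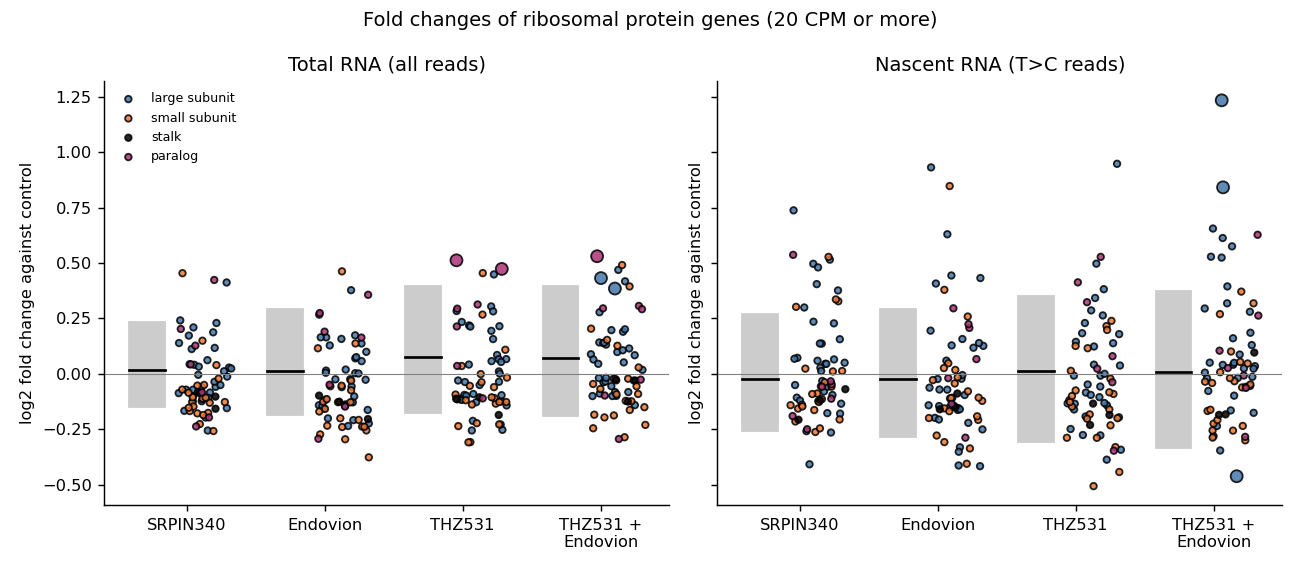
log2 fold change against control for ribosomal protein genes with at least 20 CPM in total RNA (left) and nascent RNA (right), 1 point per gene coloured by class, with larger outlined points for genes at an adjusted p under 0.05 (edgeR). Grey boxes give the middle 50% and black lines the median of all genes with at least 20 CPM. In total RNA the canonical genes lie between -0.38 and 0.49, and RPL9 is highest in nascent RNA with the combination at 1.23.

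The 3 called rises with THZ531 were those of 2 paralogs and of a read-through locus. RPL26L1, a close copy of RPL26, had 757 and 502 reads in control, 924 and 646 with THZ531 and 719 and 728 with the combination, that is 27.0 and 21.1, 34.1 and 34.6, and 31.5 and 38.1 CPM. All 4 libraries with THZ531 lay above both controls. Its log2 change was 0.51 (SE 0.18) with THZ531 (edgeR, adjusted p = 0.037) and 0.53 (SE 0.18) with the combination (adjusted p = 0.033). The parent gene RPL26, with 56316 control reads, had values of -0.14 and -0.10 in the same comparisons. RPL39L, the paralog of RPL39, had 45.1 and 33.6 CPM in control against 47.2 and 62.2 with THZ531, so that replicate 2 stood highest, and its change was 0.47 (adjusted p = 0.044). RPS10-NUDT3, the read-through locus of RPS10 and a neighbouring phosphatase gene, had 69.8 and 80.0 CPM in control, 92.2 and 102 with THZ531 and 105 and 90.5 with the combination. Both treated groups lay above both controls, with changes of 0.37 (adjusted p = 0.033) and 0.38 (adjusted p = 0.030). All 3866 bases of its counted interval lie inside the interval of NUDT3, the neighbouring gene, so its reads also count for that gene and do not show a rise of a ribosomal protein mRNA. NUDT3 as a whole, with 62193 reads over all libraries against 20792, had changes of 0.11 and 0.09 (adjusted p = 0.50 and 0.58). The other paralogs tested, RPL7L1, RPL22L1, RPL36AL, RPS27L and RPS4Y1, were not called in any of the 4 treatments, and RPL7L1 came nearest (0.31 with THZ531, adjusted p = 0.069).

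These calls rested on few libraries, and in fits of single comparisons none of them passed (adjusted p of 0.057 to 0.12). Without control replicate 2 the change of RPL26L1 was 0.31 with THZ531 (adjusted p = 0.31) and 0.32 with the combination (adjusted p = 0.30), and that of RPL39L with THZ531 was 0.24 (adjusted p = 0.41). Without THZ531 replicate 2, RPL39L was at 0.21 and RPS10-NUDT3 at 0.24 (adjusted p = 0.50 and 0.32). Without replicate 1 of the combination, RPS10-NUDT3 was at 0.21 (adjusted p = 0.36).

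RPL4 and RPL14, both large subunit proteins, were higher in total RNA with THZ531 and Endovion together. RPL4 (chr15:66498015-66524532, - strand), which carries several snoRNAs in its introns, had 165 and 152 CPM in control and 227 and 201 CPM with the combination. The groups did not overlap, and the other 6 treated libraries lay between them, at 175 to 192 CPM. Its log2 change was 0.43 (SE 0.11, adjusted p = 0.0070). RPL14 (chr3:40457292-40468587, + strand) had 295 and 257 CPM in control and 398 and 322 with the combination, a change of 0.38 (SE 0.12, adjusted p = 0.021), and 302 to 323 CPM in the other treated libraries. RPL12, a stalk-base protein named here after its values were seen, rose by the largest factor (0.92, SE 0.30, adjusted p = 0.032) from only 143 and 171 reads in control to 256 and 228, and SRPIN340 replicate 2 had more, with 385. In a fit of the single comparison RPL14 did not pass (adjusted p = 0.074). Without replicate 1 of the combination RPL4 was at 0.28 (adjusted p = 0.15) and RPL14 at 0.16 (adjusted p = 0.41). Without control replicate 2 they were at 0.33 (adjusted p = 0.089) and 0.24 (adjusted p = 0.23), and RPL12 without control replicate 1 was at 0.69 (adjusted p = 0.17).

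RPS19BP1 was lower in total RNA in every treated library. It had 119 and 122 CPM in control, 91.3 and 90.8 with SRPIN340, 83.2 and 86.2 with Endovion, 95.9 and 87.2 with THZ531 and 107 and 73.6 with the combination. No treated library reached the lower control, and the combination spread most. The log2 change was -0.40 (adjusted p = 0.14), -0.51 (adjusted p = 0.033), -0.39 (adjusted p = 0.048) and -0.41 (adjusted p = 0.040) in that order. Without replicate 2 of the combination the change there was -0.17 (adjusted p = 0.43), and with a plain sum of intervals none of the 3 calls passed (adjusted p of 0.062 to 0.084). RPS19, its partner in the small subunit, had changes between 0.04 and 0.15.

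In nascent RNA, the readout nearest to transcription in this design, 76 members were among 9945 genes tested, 66 of them canonical. With SRPIN340, 0.845% of all genes rose and 0.191% fell, and no member was called (edgeR; 5 at an unadjusted p under 0.05, 0 by DESeq2). With Endovion, 2.04% rose and 0.623% fell, and no member was called (edgeR; 8 and 0). With THZ531, 3.86% rose and 3.6% fell, and again no member was called (edgeR; 7 and 0). With the combination, 4.62% rose and 3.49% fell, and 3 members were called, RPL9 and RPL14 as higher and RPL35A as lower, which is 3 of 76 (10 at an unadjusted p under 0.05, 3 by DESeq2). By the limit of the methods, an unadjusted p under 0.05 and a change of at least 2-fold, 4.66, 6.49, 12 and 11.3% of all genes passed in the 4 comparisons, and 0, 0, 0 and 1 member, the last being RPL9. The median nascent log2 change of the 76 members was -0.05, -0.08, -0.08 and 0.01, against -0.01, -0.01, -0.02 and -0.01 for all genes. The background was low in this readout, so a count of 0 of 76 lay near it with SRPIN340 and Endovion.

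RPL9, a large subunit protein near the factor-binding site (chr4:39452587-39458931, - strand), had the largest called change. It had 70 and 70 reads with a conversion in control, 104 and 156 with SRPIN340, 96 and 86 with Endovion, 82 and 90 with THZ531 and 106 and 151 with the combination. In nascent CPM these were 45.1 and 56.2, 70.3 and 97.6, 73.7 and 82.7, 53.4 and 91.5, and 89.8 and 149. Replicate 2 of the combination stood highest and THZ531 replicate 1 overlapped the controls. The change with the combination was 1.23 (SE 0.28, 95% interval 0.67 to 1.80, adjusted p = 0.0025), and 0.84 without replicate 2 of the combination (adjusted p = 0.16). In the other treatments it was 0.74, 0.63 and 0.50 for SRPIN340, Endovion and THZ531, with adjusted p of 0.26, 0.30 and 0.34. RPL14 had 142 and 85 converted reads in control and 163 and 152 with the combination, that is 91.4 and 68.2 against 138 and 150 nascent CPM, with no overlap. Its change was 0.84 (SE 0.24, adjusted p = 0.015), and 0.65 without control replicate 2 (adjusted p = 0.20). With a plain sum of intervals neither gene passed (adjusted p = 0.063 for RPL9 and 0.054 for RPL14).

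RPL35A, a large subunit protein whose labelled share in control was 17.3%, fell. It had 1790 and 1836 nascent CPM in control and 1311 and 1322 with the combination, and the libraries of the other treatments lay between 1197 and 1528. No treated library of any group reached the controls. The change was -0.46 with the combination (SE 0.14, adjusted p = 0.027) and -0.41, -0.41 and -0.39 with SRPIN340, Endovion and THZ531 (adjusted p = 0.18, 0.11 and 0.076). Its total RNA did not pass the test (values of -0.16 to -0.03), and the nascent call with the combination was lost at nearly the same size under several settings. The adjusted p was 0.057 in a fit of that comparison alone, 0.089 with a plain sum of intervals, and 0.062 and 0.11 without control replicates 1 and 2 (changes of -0.44 to -0.47).

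The labelled share was tested as the change in reads with a conversion over that in reads without one. Each class of reads was scaled over all genes, so these changes are relative to the shift of all genes. The shares printed below are not scaled in this way. Over all genes they were 5.70 and 5.63% in control and 5.06 and 5.17% with Endovion. At most 4 of the 76 members were called in any treatment. Of 9945 genes 0.181, 0.442, 0.342 and 1.02% were called in either direction with SRPIN340, Endovion, THZ531 and the combination. Of the 76 members none was called with SRPIN340 or THZ531 (edgeR; 12 at an unadjusted p under 0.05 in each; DESeq2 was not run on this interaction), 1 with Endovion and 4 with the combination. With Endovion and with the combination these were larger shares than among all genes, and whether the family differs from other genes was not tested. RPL27 fell by 0.58 with Endovion (edgeR, adjusted p = 0.037) and by 0.57 with the combination (adjusted p = 0.018) on the log2 scale. Its shares were 7.51 and 9.66% in control, 5.27 and 5.19% with Endovion and 5.37 and 5.34% with the combination. Those treated libraries lay together and below both controls, of which replicate 2 stood high, and without it the changes were -0.36 in each (adjusted p = 0.49 and 0.33). RPL30 fell from 10.5 and 12.7% to 8.30 and 7.62% with the combination (-0.45, adjusted p = 0.012), or -0.27 without control replicate 2 (adjusted p = 0.33). RPL35A fell by 0.40 (adjusted p = 0.037), from 17.5 and 17.0% to 13.5 and 11.7%, and was at -0.27 without replicate 2 of the combination (adjusted p = 0.44). RPL37 rose by 0.68 (adjusted p = 0.046), but with shares of 5.23 and 4.55% in control against 5.36 and 8.85% it did so through replicate 2 alone, and was at 0.29 without it (adjusted p = 0.62). With a plain sum of intervals none of these labelled share calls passed (adjusted p of 0.20 to 0.34).

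**Figure D5:**
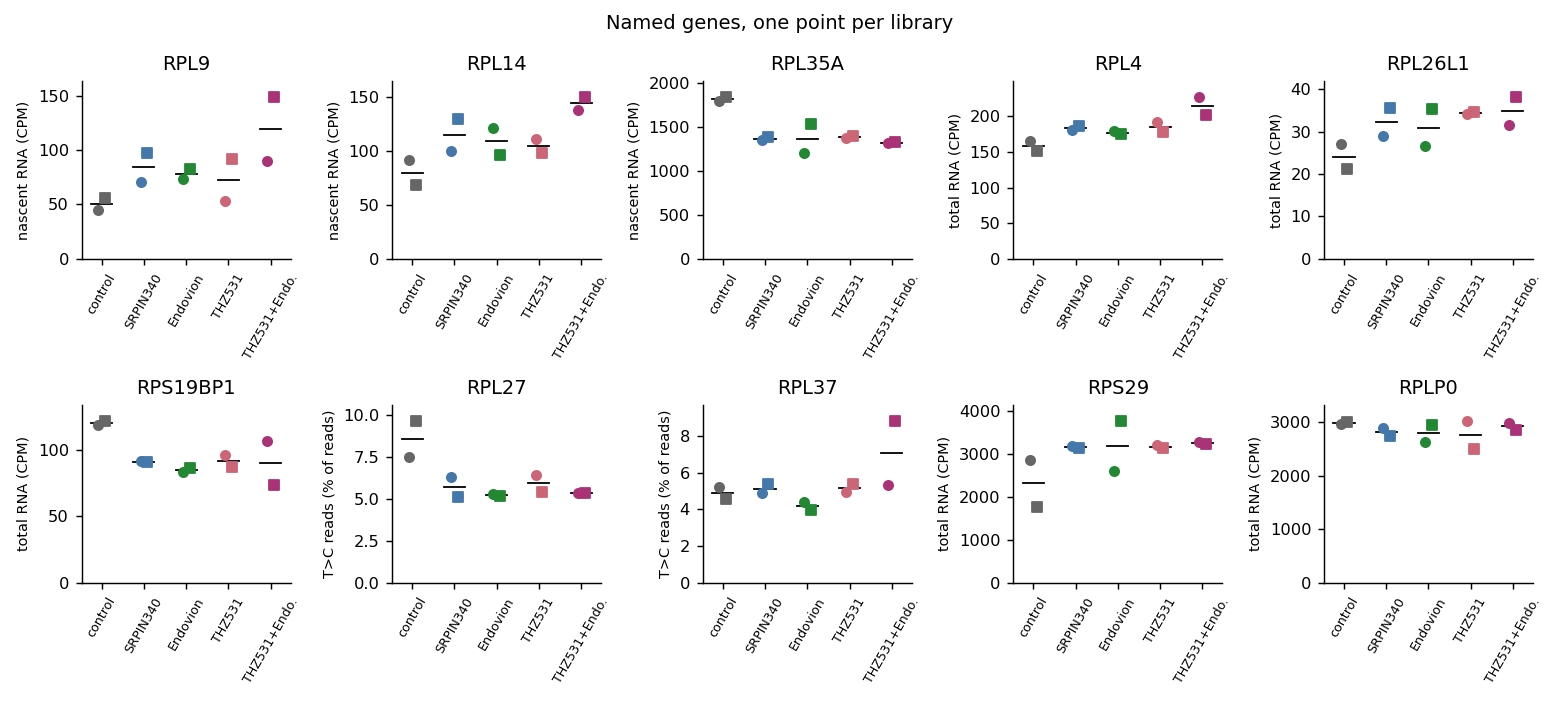
Values per library of 10 named genes in the 5 groups (circle replicate 1, square replicate 2, bar mean of 2), as nascent CPM, total CPM or labelled share in %, all y axes from 0. RPL9 and RPL14 are highest with THZ531 and Endovion, RPL35A and RPS19BP1 are lower in all treated groups, RPL27 and RPS29 differ between the control libraries, RPL37 is high in 1 library and RPLP0 varies little.

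RPL27 and RPS29 show how far the control libraries set what was found. RPS29, a zinc-binding small subunit protein, had 80540 reads in control replicate 1 and 41833 in replicate 2, that is 2871 and 1761 CPM, and 2604 to 3779 CPM in the 8 treated libraries. RPL27 had 10197 and 5143 reads in control, 364 and 216 CPM, and 318 to 436 CPM in the treated libraries. RPS15A, RPL23, RPL38 and RPL30 were also lower in control replicate 2, by 0.64, 0.45, 0.42 and 0.39 on the log2 scale. With control replicate 2 as the only control, RPL27, RPS29 and RPS15A were called as higher in total RNA in all 4 treatments, whereas with control replicate 1 alone none of them was called. Their interval lengths were 39 bases for RPL27 and 95 bases for the main interval of RPS29, and what part the short intervals play was not tested.

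The combination was also set against each of its agents. Against THZ531 alone, 0.322% of all genes were called in nascent and 0.511% in total RNA, and no member was called in either (edgeR; 5 and 3 at an unadjusted p under 0.05, 0 by DESeq2). Against Endovion alone, 1.32% and 8.22% of all genes were called, and again no member (edgeR; 4 and 3 at an unadjusted p under 0.05, 0 by DESeq2). In total RNA 69 of 84 members lay above 0 against Endovion, with a median of 0.08, which was -0.03 without Endovion replicate 1 and 0.20 without replicate 2. The effect of Endovion in the presence of THZ531 minus that in its absence was called for 0.302% of all genes in nascent and 0.00681% in total RNA, and for no member (edgeR; 4 at an unadjusted p under 0.05 in each readout, lowest adjusted p 0.26 for nascent RPL37, at 0.80), a count near that background. DESeq2 was not run on this interaction.

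Other genes of the translation machinery were counted in the same way, and whether these lists differ from other genes or from the family was not tested. The ribosomal proteins FAU and RACK1, which the naming rule leaves out, were called in none of the 4 treatments (total RNA -0.15 to 0.07, 0 of 2 called by edgeR, 0 at an unadjusted p under 0.05). Of 19 translation factors and other known TOP mRNAs, 1, 4, 5 and 5 rose in total RNA with SRPIN340, Endovion, THZ531 and the combination, and 1 fell with THZ531, EIF3F (-0.39, adjusted p = 0.029). The shares that rose were 5.26, 21.1, 26.3 and 26.3%, beside 1.82, 8.91, 16.6 and 16.6% of all genes. PABPC1, the poly(A) binding protein, rose in all 4 in total RNA (0.69, 0.85, 0.88 and 1.03) and in nascent RNA (0.88, 0.99, 0.87 and 1.12). The initiation factor subunit EIF3A reached 0.86 and EIF4B 0.69 in total RNA with the combination, while the elongation factors EEF1A1 and EEF2 were not called. Of 10 regulators, 0, 0, 3 and 2 rose in total RNA and 1 fell with the combination. MYC, an activator of ribosomal protein transcription, rose in nascent RNA with SRPIN340 (0.84), THZ531 (1.53) and the combination (0.87), and LARP1 in total RNA by 0.54 with THZ531 and 0.49 with the combination. RPTOR, the raptor subunit of mTORC1, fell by 1.09 in total RNA with the combination. Of 5 chaperones dedicated to single ribosomal proteins, AAMP rose in all 4 treatments (total RNA 0.81, 0.85, 1.08 and 1.03), and GRWD1, which escorts RPL3, fell by 0.63 with Endovion and rose by 0.48 with THZ531. MDM2, MDM4 and the cell cycle inhibitor CDKN1A had 0 of 3 called in every comparison (edgeR; at most 1 at an unadjusted p under 0.05).

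The 78 mitochondrial ribosomal protein genes, which encode the separate ribosome of mitochondria, were measured as a named counterpart. In total RNA 76 were tested, and 1, 3, 12 and 12 rose and 0, 8, 12 and 14 fell with SRPIN340, Endovion, THZ531 and the combination, against 0, 0, 3 and 5 members that rose and 0, 1, 1 and 1 that fell among 84 cytosolic genes. Over all genes 1.82, 8.91, 16.6 and 16.6% rose and 0.143, 2.54, 14.1 and 12.4% fell. Of the mitochondrial family 1.32, 3.95, 15.8 and 15.8% rose and 0, 10.5, 15.8 and 18.4% fell. With THZ531 it thus lay near the background in each direction. With Endovion a smaller share rose and a larger share fell than among all genes, and with the combination a larger share fell. In nascent RNA 2, 4, 5 and 5 of 73 rose (2.74, 5.48, 6.85 and 6.85%, beside 0.845, 2.04, 3.86 and 4.62% of all genes), and 1 fell with THZ531. Whether the families differ in their share of called genes was not tested.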

How the data were processed

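Total RNA of 10 libraries (5 groups of 2) was analysed. Per the labels and methods, QuantSeq 3′ libraries were sequenced as single reads and the authors counted T-to-C conversions with SLAM-DUNK, whose version and settings are not given in the sources used here. The submitters' processing notes also name Bowtie2 2.3.4.1, SAMtools 1.6, DESeq2 1.38.2 and hg38. The deposited tables hold, for 104653 intervals of 3′ UTRs, counts of all reads and counts of reads with a conversion, which were used. Their counts of T bases covered and of conversions were used for the values per T base. The authors' rate column was not used, and their CPM column served only to estimate the mapped reads of each library. No multi-mapping reads are recorded.

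Intervals were named by transcript through GENCODE 44. The 8226 on alternative contigs and 3517 unmatched ones were left out. Where intervals of a gene overlapped, the one with most reads was kept, and counts were summed per gene. The T content of 57380 of 57380 kept intervals equalled that of hg38.

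Group means over all 10 libraries were fitted with edgeR 4.0.16 (quasi-likelihood, TMM, filterByExpr, R 4.3.3), separately for nascent and total reads and jointly for the labelled share (an interaction), with Benjamini-Hochberg adjustment over all genes tested and a limit of 0.05. CPM in the text are TMM-scaled, except the marker sums, which are scaled to reads on genes. Summed shares were compared by two-sided exact permutation tests. DESeq2 1.42.0, other scalings and filters, a plain sum of intervals, single comparisons, a replicate block and leaving out each library were alternatives. The fits were tested on simulated data. Replicates differed by more than sampling noise (chi-square per degree of freedom 15.1 to 23.7) and were counted separately.

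The members, gene lists and tests were chosen with earlier results of these data known. Named genes are a list set by role, up to 3 called members per direction, comparison and readout (all where 5 or fewer), and the 3 highest and lowest members by control reads and labelled share; others were named after their values were seen. Some listed genes are not reported here.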

Additional observations from a re-analysis of the deposited data

How the results depend on the processing

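No called member changed sign under any alternative. The counts of called members moved most with the filter on low counts: without it 3, 5, 8 and 12 members were called in total RNA with SRPIN340, Endovion, THZ531 and the combination, 4, 2 and 1 for the labelled share with the first 3 of these, and 1 in nascent RNA between the combination and THZ531, while the median change of the labelled share was -0.062 with THZ531 and -0.017 with the combination. With a plain sum of intervals 0 members were called in nascent RNA with the combination, 0 in total RNA with Endovion and 0 for the labelled share with Endovion and with the combination, and the summed T>C share with THZ531 differed by -0.680 points. Fits of single comparisons called 2 members in total RNA with THZ531 and 2 with the combination. Scaled to all reads, the nascent median with Endovion was -0.18. The canonical genes alone, an alternative chosen after seeing the data, gave 0, 0 and 3 calls in total RNA with Endovion, THZ531 and the combination. The cause of these moves was not tested. With replicate number as a block, 1 member was called in nascent RNA between the combination and THZ531 and 1 for the labelled share with SRPIN340, and all other counts of calls stayed within 1.5 times. Samples with the same number did not deviate together (correlations of -0.07 to 0.06 in nascent and -0.15 to 0.20 in total RNA), so the numbers were not taken as pairs.

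Leaving out each library in turn gave these ranges. In the order SRPIN340, Endovion, THZ531 and combination, called members were 0 to 1, 0 to 2, 0 to 2 and 0 to 3 in nascent RNA, 0 to 3, 0 to 4, 0 to 7 and 1 to 7 in total RNA, and 0 to 3, 0 to 2, 0 to 1 and 0 to 4 for the labelled share. Between the combination and THZ531 they were 0 to 1 in nascent RNA and between the combination and Endovion 0 to 2 in total RNA. Median changes ran from -0.15 to -0.016 (Endovion) and from -0.13 to 0.0039 (THZ531) in nascent RNA, and from -0.20 to 0.045 in total RNA with Endovion. Between the combination and THZ531 the nascent median ran from -0.0027 to 0.15, and between the combination and Endovion from 0.023 to 0.14 in nascent and from -0.028 to 0.20 in total RNA. The summed share differed by -0.963 to 0.0801 points (all reads) and -0.557 to 0.177 points (T>C reads) with Endovion, and the summed labelled share by -0.310 to 0.0449 points with THZ531. Every call of a member was lost without at least 1 library of its own comparison.

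With 2 libraries per group the standard errors rest on a spread shared over all groups, and an exact test of single values reaches a p of 0.333 at best. Low conversion counts limit nascent values of members such as RPL12, with 5 and 6 converted reads in control. No unlabelled library was used here, so conversions that do not come from 4sU cannot be told apart from label.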
